A study of Drosophila melanogaster with 80 samples.

Results

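The circadian clock genes described here are 7 genes of the Drosophila melanogaster molecular clock, Clk, cry, tim, per, vri, Pdp1 and cwo, of 11982 genes that the arrays name. Each gene was read from a probe set that the platform annotation gives to its symbol and to no other. tim and cwo had 2 such probe sets each, and the one of highest mean signal across all 80 arrays was taken. Among the probe sets of a gene the choice went by mean signal alone, while the 7 genes themselves were chosen with earlier results of these data known. All 7 genes were bright enough to be tested in every comparison.

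RNA of whole adult flies of Oregon R, a laboratory wild-type strain, was hybridised to 80 arrays (Affymetrix, Drosophila Genome 2.0) that form 20 groups of 4. The diets were a high-sucrose diet (HSD, 1 M sucrose) and a control diet (CD, 0.15 M sucrose). Groups of the F0 generation were females and males on HSD or CD. Groups of the F1 and F2 generations were females and males on HSD or CD that descended from F0 males kept on HSD (HSD ancestry) or on CD (CD ancestry). All groups shared the strain, whole-fly RNA, 14 days on their diet from a stated age of 3 to 4 days, a temperature of 25 °C, and vials of 30 flies that were virgin or unmated. The labels do not give the hour of collection, the diet of the F1 parents of the F2 flies, or whether replicate arrays of a group stand for different vials of flies. Where they share a vial, the p-values reflect technical spread alone.

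The fly clock is a feedback loop of transcription. The CLK and CYC proteins together activate per, tim, vri, Pdp1 and cwo, and the PER and TIM proteins build up and block CLK and CYC until they are degraded. In a further loop VRI represses and PDP1 activates Clk, while CWO represses genes that CLK and CYC activate, and CRY, a blue-light receptor, has TIM degraded in the light. The RNAs of per, tim, vri and Pdp1 are known to cycle over the day in near antiphase to those of Clk and cry. The clock runs in brain clock neurons and photoreceptors and also in peripheral tissues such as fat body. In RNA of whole flies, fewer cells of a type and less RNA per cell cannot be told apart.

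Values are log2 signals as the authors deposited them, and a change is a difference of log2 means given with its standard error (SE). A gene passed in a comparison at a Benjamini-Hochberg adjusted p under 0.05 in limma, a linear model fitted across all genes tested. The 80 arrays fall into 10 separately normalized sets of 8, namely each sex of F0 and each combination of sex and own diet in F1 and in F2. A diet comparison in F0 and an ancestry comparison in F1 or F2 each lie within a set. Sex, generation and, in F1 and F2, own diet lie across sets, and in F1 and F2 each batch in the labels holds 1 sex, generation and own diet, so batch cannot be told apart from any of these. Array medians ran from 5.19 to 7.37; 4 arrays a group limit the precision of every value. In 6 arrays transcripts limited to the other sex stood over 0.5 above the lowest array of their set. These were F1 males fed CD, replicates 1 and 4, F1 females fed HSD, replicate 1, and F2 males fed HSD, replicates 1, 2 and 4, all of HSD ancestry.

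Clk, which encodes the activator of the loop, was, as deposited, highest in F1 males fed HSD and lowest in F2 females. In F0 it averaged 6.56 ± 0.13 on HSD and 6.44 ± 0.09 on CD in females, and 7.99 ± 0.06 on HSD and 7.86 ± 0.01 on CD in males (SD, n = 4 arrays here and for all group means). In F1 females Clk averaged 7.03 ± 0.18 in flies of HSD ancestry and 7.06 ± 0.03 in flies of CD ancestry on HSD, and 6.67 ± 0.05 in flies of HSD ancestry and 6.74 ± 0.15 in flies of CD ancestry on CD. In F1 males Clk averaged 8.38 ± 0.03 in flies of HSD ancestry and 8.48 ± 0.05 in flies of CD ancestry on HSD, and 7.85 ± 0.06 in flies of HSD ancestry and 7.96 ± 0.06 in flies of CD ancestry on CD. All these male means lay above all the female ones. In F2 females Clk averaged 5.85 ± 0.08 in flies of HSD ancestry and 6.10 ± 0.07 in flies of CD ancestry on HSD, and 5.97 ± 0.24 in flies of HSD ancestry and 6.31 ± 0.12 in flies of CD ancestry on CD. In F2 males Clk averaged 7.90 ± 0.10 in flies of HSD ancestry and 7.72 ± 0.08 in flies of CD ancestry on HSD, and 7.46 ± 0.15 in flies of HSD ancestry and 7.24 ± 0.29 in flies of CD ancestry on CD. Female minus male differences of matched groups ran from -2.05 to -0.93, all 10 below 0, and from -1.65 to -0.19 after quantile normalization of all arrays together. Own HSD minus own CD ran from 0.32 to 0.53 in F1 as deposited but from -0.15 to -0.04 after that normalization, and from -0.21 to 0.48 and 0.01 to 1.14 in F2, so no side of own diet held on both scalings. Of the 19 neighbouring pairs in the order of Clk levels, 12 lay within the larger SD of the pair.

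The blue-light receptor gene cry also stood lower in females than in males throughout. Its F0 means were 9.15 ± 0.11 on HSD and 9.48 ± 0.12 on CD in females, and 10.55 ± 0.03 on HSD and 10.83 ± 0.03 on CD in males. In F1 females cry averaged 9.91 ± 0.08 in flies of HSD ancestry and 9.73 ± 0.05 in flies of CD ancestry on HSD, and 9.58 ± 0.05 in flies of HSD ancestry and 9.53 ± 0.08 in flies of CD ancestry on CD. In F1 males cry averaged 11.37 ± 0.05 in flies of HSD ancestry and 11.34 ± 0.02 in flies of CD ancestry on HSD, the top of its order as deposited, and 10.56 ± 0.10 in flies of HSD ancestry and 10.42 ± 0.03 in flies of CD ancestry on CD. As deposited, HSD-fed F1 groups thus stood above their CD-fed counterparts, the opposite side to F0. In F2 females cry averaged 9.17 ± 0.07 in flies of HSD ancestry and 9.09 ± 0.08 in flies of CD ancestry on HSD, and 8.65 ± 0.04 in flies of HSD ancestry and 8.75 ± 0.09 in flies of CD ancestry on CD. In F2 males cry averaged 10.50 ± 0.04 in flies of HSD ancestry and 10.46 ± 0.10 in flies of CD ancestry on HSD, and 10.24 ± 0.08 in flies of HSD ancestry and 10.17 ± 0.04 in flies of CD ancestry on CD. Own HSD minus own CD ran from 0.20 to 0.92 in F1 and from 0.26 to 0.52 in F2, positive in all 8 matched pairs, but in 6 of 8 after quantile normalization. The F1 differences then ran from -0.37 to 0.35. The F1 female pairs, at -0.37 and -0.23, lay on the same side as F0, so the contrast with F0 did not hold for them. Female minus male differences ran from -1.61 to -0.89, and 9 of 19 neighbouring pairs lay within the larger SD.

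tim, whose protein is degraded in light and pairs with PER, spanned 3.42 log2 units between its highest and lowest group means. F0 means of tim were 8.60 ± 0.35 on HSD and 8.86 ± 0.14 on CD in females, and 9.01 ± 0.06 on HSD and 9.16 ± 0.07 on CD in males. In F1 females tim averaged 9.98 ± 0.04 in flies of HSD ancestry and 9.71 ± 0.09 in flies of CD ancestry on HSD, and 10.08 ± 0.02 in flies of HSD ancestry and 9.85 ± 0.07 in flies of CD ancestry on CD. In F1 males tim averaged 11.15 ± 0.04 in flies of HSD ancestry and 11.01 ± 0.04 in flies of CD ancestry on HSD, and 10.89 ± 0.07 in flies of HSD ancestry and 10.86 ± 0.09 in flies of CD ancestry on CD. As deposited, own diet separated the F1 means of tim by little. In F2 females tim averaged 8.94 ± 0.11 in flies of HSD ancestry and 8.57 ± 0.05 in flies of CD ancestry on HSD, and 10.46 ± 0.03 in flies of HSD ancestry and 10.37 ± 0.05 in flies of CD ancestry on CD. In F2 males tim averaged 9.81 ± 0.06 in flies of HSD ancestry and 10.03 ± 0.08 in flies of CD ancestry on HSD, and 11.99 ± 0.02 in flies of HSD ancestry and 11.87 ± 0.10 in flies of CD ancestry on CD. Both sexes of F2 stood far lower on HSD, by -2.18 to -1.52 log2 units (own HSD minus own CD), against -0.15 to 0.27 in F1 and -0.26 to -0.15 in F0. After quantile normalization the F2 differences ran from -1.86 to -1.33 and the F1 differences from -0.71 to -0.24. Female minus male differences ran from -1.53 to -0.30, and 8 of 19 neighbouring pairs lay within the larger SD.

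per, which encodes the partner of TIM in repression, had, as deposited, its highest and lowest means in the same groups as tim, and after quantile normalization its lowest in CD F0 males. F0 means of per were 6.26 ± 0.28 on HSD and 6.17 ± 0.03 on CD in females, and 6.55 ± 0.06 on HSD and 6.43 ± 0.10 on CD in males. In F1 females per averaged 6.78 ± 0.02 in flies of HSD ancestry and 6.71 ± 0.09 in flies of CD ancestry on HSD, and 6.90 ± 0.07 in flies of HSD ancestry and 6.64 ± 0.07 in flies of CD ancestry on CD. In F1 males per averaged 7.49 ± 0.05 in flies of HSD ancestry and 7.42 ± 0.04 in flies of CD ancestry on HSD, and 7.20 ± 0.10 in flies of HSD ancestry and 7.40 ± 0.05 in flies of CD ancestry on CD. All male means of F1 lay above all female ones, as deposited. In F2 females per averaged 5.84 ± 0.16 in flies of HSD ancestry and 5.78 ± 0.12 in flies of CD ancestry on HSD, and 6.82 ± 0.06 in flies of HSD ancestry and 6.76 ± 0.05 in flies of CD ancestry on CD. In F2 males per averaged 6.43 ± 0.07 in flies of HSD ancestry and 6.55 ± 0.10 in flies of CD ancestry on HSD, and 8.23 ± 0.05 in flies of HSD ancestry and 8.09 ± 0.09 in flies of CD ancestry on CD. Own HSD minus own CD ran from -1.80 to -0.98 in F2 and from -0.11 to 0.28 in F1, and from -2.04 to -0.51 and -0.82 to -0.32 after quantile normalization. The sex order of per depended on the scaling: as deposited, all 10 female minus male differences lay below 0, from -1.41 to -0.25, while after quantile normalization 7 of 10 lay above 0, from -1.10 to 0.77. Of the neighbouring pairs 11 of 19 lay within the larger SD.

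vri, the repressor of Clk, was, as deposited, lowest in F0 females and highest in HSD-fed F1 males. F0 means of vri were 8.08 ± 0.12 on HSD and 8.08 ± 0.07 on CD in females, and 9.36 ± 0.07 on HSD and 9.24 ± 0.07 on CD in males. In F1 females vri averaged 9.57 ± 0.07 in flies of HSD ancestry and 9.40 ± 0.07 in flies of CD ancestry on HSD, and 8.92 ± 0.07 in flies of HSD ancestry and 8.83 ± 0.09 in flies of CD ancestry on CD. In F1 males vri averaged 10.76 ± 0.07 in flies of HSD ancestry and 10.62 ± 0.05 in flies of CD ancestry on HSD, and 10.28 ± 0.14 in flies of HSD ancestry and 10.36 ± 0.07 in flies of CD ancestry on CD. Own HSD minus own CD was positive in F1, from 0.26 to 0.65, and negative in F2, from -0.84 to -0.14. In F2 females vri averaged 8.80 ± 0.17 in flies of HSD ancestry and 8.58 ± 0.01 in flies of CD ancestry on HSD, and 9.64 ± 0.14 in flies of HSD ancestry and 9.35 ± 0.15 in flies of CD ancestry on CD. In F2 males vri averaged 9.80 ± 0.21 in flies of HSD ancestry and 10.23 ± 0.09 in flies of CD ancestry on HSD, and 10.57 ± 0.03 in flies of HSD ancestry and 10.37 ± 0.05 in flies of CD ancestry on CD. After quantile normalization the own-diet differences of vri ran from -0.25 to 0.06 in F1 and from -0.89 to 0.14 in F2, so neither sign held in every pair. Female minus male differences ran from -1.65 to -0.93, and 12 of 19 neighbouring pairs lay within the larger SD.

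Pdp1, the activator of Clk, stood lower in HSD-fed than in CD-fed flies in all 8 matched descendant groups. F0 means of Pdp1 were 8.63 ± 0.12 on HSD and 8.65 ± 0.18 on CD in females, and 10.10 ± 0.08 on HSD and 10.14 ± 0.04 on CD in males. In F1 females Pdp1 averaged 9.37 ± 0.16 in flies of HSD ancestry and 9.08 ± 0.08 in flies of CD ancestry on HSD, and 9.78 ± 0.16 in flies of HSD ancestry and 9.68 ± 0.17 in flies of CD ancestry on CD. In F1 males Pdp1 averaged 10.51 ± 0.03 in flies of HSD ancestry and 10.54 ± 0.08 in flies of CD ancestry on HSD, and 10.73 ± 0.08 in flies of HSD ancestry and 10.83 ± 0.11 in flies of CD ancestry on CD. Own HSD minus own CD ran from -0.60 to -0.22 in F1 and from -1.26 to -0.40 in F2, and stayed negative in all 8 pairs after quantile normalization. In F2 females Pdp1 averaged 8.32 ± 0.03 in flies of HSD ancestry and 8.27 ± 0.05 in flies of CD ancestry on HSD, and 9.03 ± 0.09 in flies of HSD ancestry and 8.67 ± 0.12 in flies of CD ancestry on CD. In F2 males Pdp1 averaged 9.65 ± 0.18 in flies of HSD ancestry and 9.65 ± 0.07 in flies of CD ancestry on HSD, and 10.53 ± 0.09 in flies of HSD ancestry and 10.91 ± 0.24 in flies of CD ancestry on CD. Female minus male differences ran from -2.24 to -0.94, all 10 below 0 on both scalings, and 11 of 19 neighbouring pairs lay within the larger SD.

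cwo, the repressor of genes that CLK and CYC activate, showed no steady order of the sexes, and its group means spanned 1.54 log2 units. F0 means of cwo were 9.61 ± 0.07 on HSD and 10.05 ± 0.15 on CD in females, and 9.83 ± 0.16 on HSD and 9.98 ± 0.07 on CD in males. In F1 females cwo averaged 11.11 ± 0.06 in flies of HSD ancestry and 11.03 ± 0.05 in flies of CD ancestry on HSD, and 10.54 ± 0.15 in flies of HSD ancestry and 10.68 ± 0.15 in flies of CD ancestry on CD. In F1 males cwo averaged 11.15 ± 0.09 in flies of HSD ancestry and 11.13 ± 0.04 in flies of CD ancestry on HSD, and 10.54 ± 0.03 in flies of HSD ancestry and 10.59 ± 0.06 in flies of CD ancestry on CD. The 4 HSD-fed F1 groups led the order as deposited, but own HSD minus own CD in F1 ran from -0.11 to 0.14 after quantile normalization, against 0.35 to 0.61 as deposited. In F2 females cwo averaged 10.21 ± 0.11 in flies of HSD ancestry and 10.13 ± 0.08 in flies of CD ancestry on HSD, and 10.57 ± 0.05 in flies of HSD ancestry and 10.47 ± 0.07 in flies of CD ancestry on CD. In F2 males cwo averaged 10.25 ± 0.24 in flies of HSD ancestry and 10.35 ± 0.07 in flies of CD ancestry on HSD, and 10.28 ± 0.15 in flies of HSD ancestry and 10.35 ± 0.18 in flies of CD ancestry on CD. Female minus male differences ran from -0.22 to 0.29, with 4 of 10 above 0 as deposited and 2 of 10 after quantile normalization. Of the neighbouring pairs 16 of 19 lay within the larger SD.

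**Figure D1:**
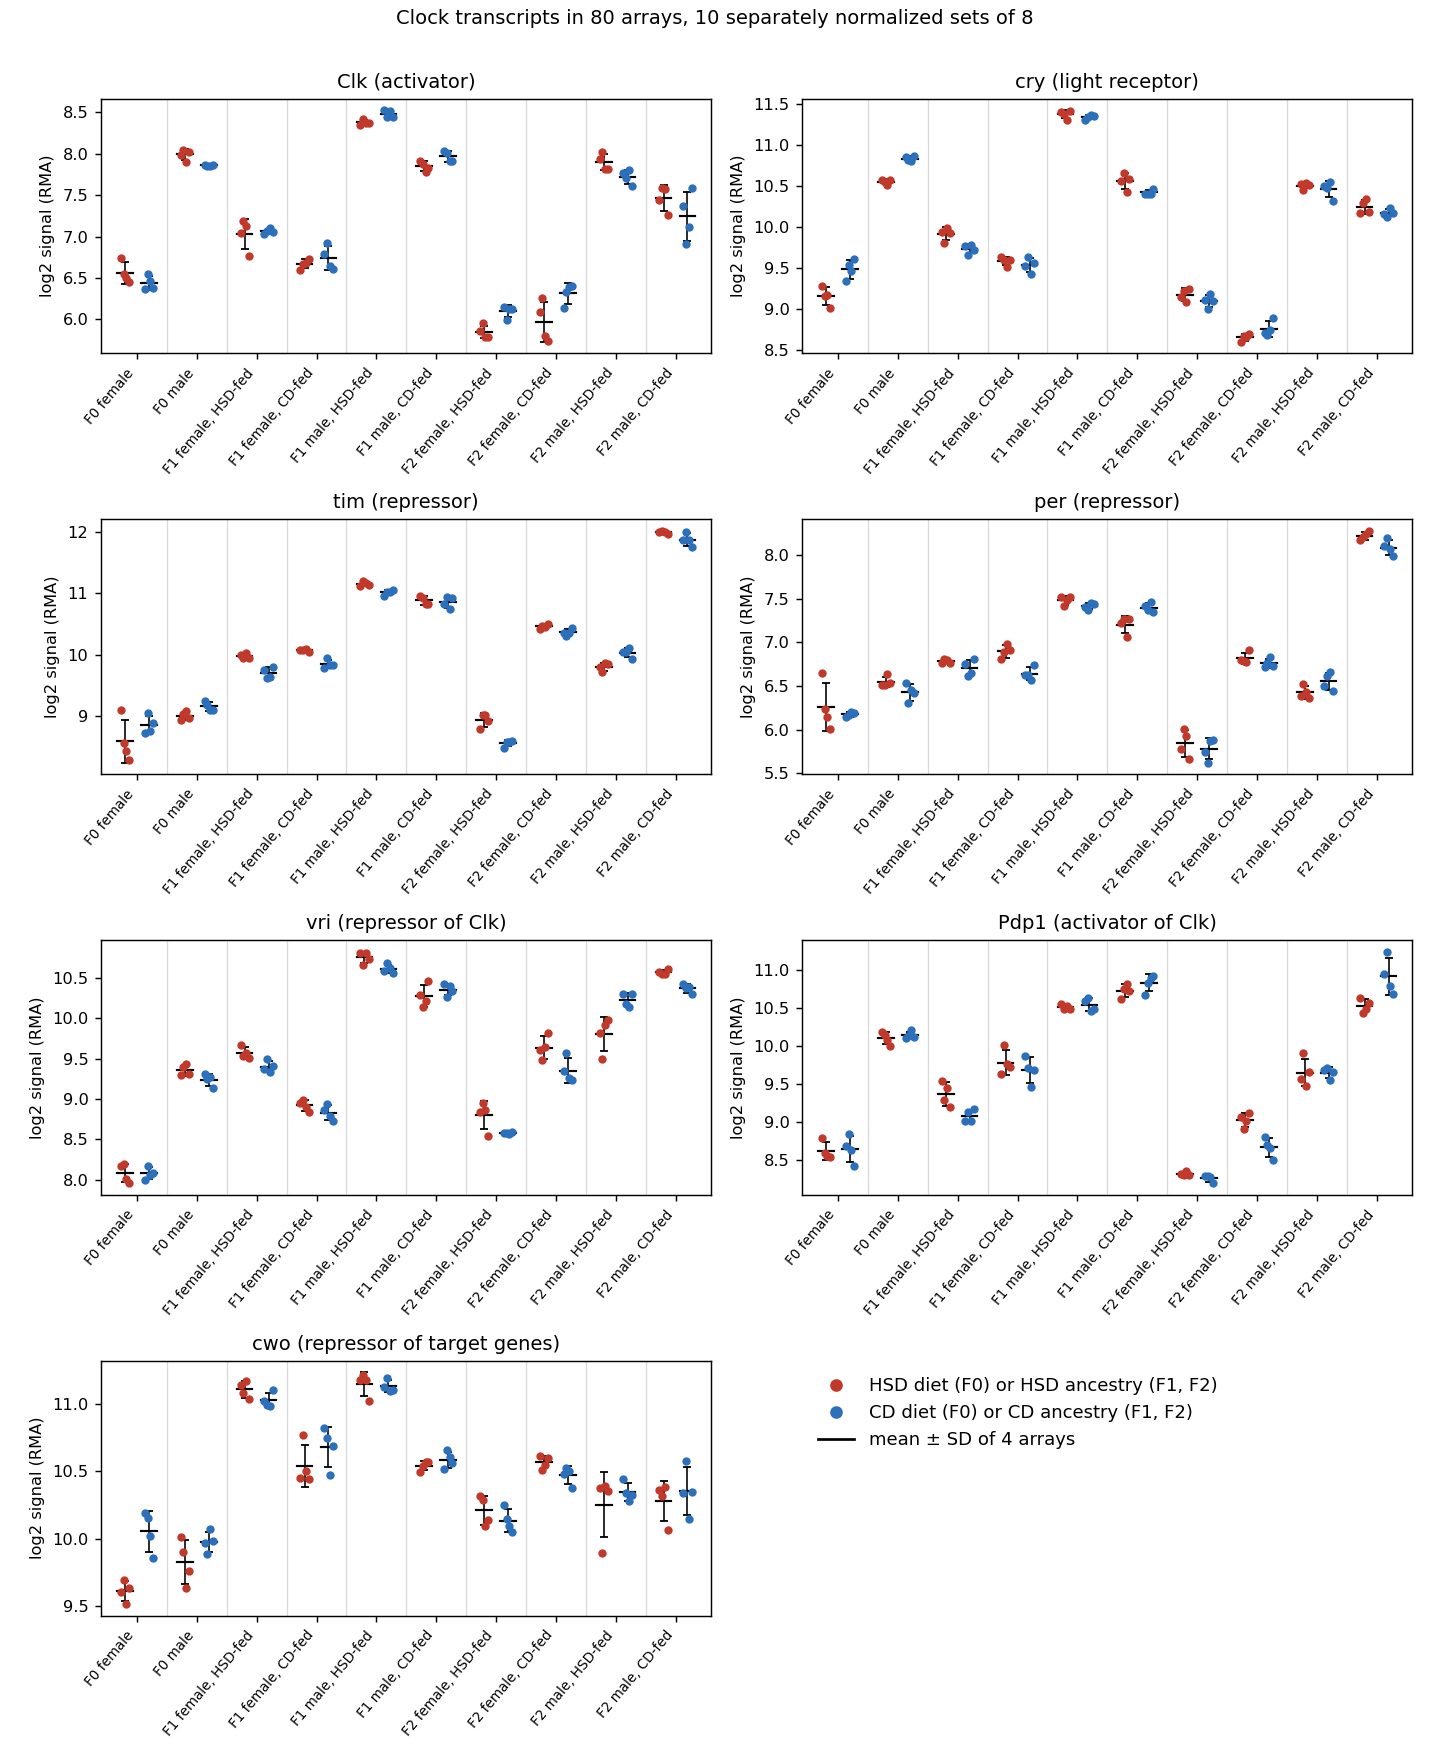
Log2 signal of each clock gene in every array (points) with the mean ± SD of each group of 4, for 10 separately normalized sets of 8 arrays; in F0 the colours are the flies' own diet, in F1 and F2 the ancestry. Clk, cry, tim, vri and Pdp1 stand lower in females than in males of the same generation, diet and ancestry, on the scale as deposited and after quantile normalization. The lowest group means of tim and per as deposited are those of HSD-fed F2 females of CD ancestry.

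The F0 comparison asked how the diet itself moved the clock genes. In F0 females on HSD cry and cwo fell, and in F0 males on HSD cry and tim fell and Clk rose. cry was the clock gene that passed in both sexes. Among F0 females 2 of 7 clock genes passed, both lower, where 41.4% of all genes tested passed. Among F0 males 3 of 7 passed, 2 lower and 1 higher, where 30.7% of all genes tested passed. Both counts sit near those backgrounds.

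cry gave 9.28, 9.16, 9.16 and 9.01 in HSD females, against 9.33, 9.53, 9.46 and 9.60 in CD females. Every HSD female array lay below every CD female array, a change of -0.33 (SE 0.07, adjusted p = 0.00546, 0.795 times the CD signal). cry gave 10.58, 10.54, 10.51 and 10.57 in HSD males, against 10.86, 10.81, 10.80 and 10.86 in CD males. The male groups did not overlap either, and the change was -0.28 (SE 0.04, adjusted p = 0.000377). The fall in cry passed in both sexes with any 1 array left out.

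cwo gave 9.60, 9.69, 9.51 and 9.63 in HSD females, against 10.19, 10.16, 10.02 and 9.86 in CD females. The groups did not overlap, with a change of -0.44 (SE 0.08, adjusted p = 0.00147). The other probe set of cwo did not show this fall: its change was 0.11, with an adjusted p of 0.293. In HSD males cwo gave 10.01, 9.90, 9.63 and 9.76, against 9.97, 9.89, 10.07 and 9.98 in CD males. These groups overlapped, and the change of -0.15 did not pass (adjusted p = 0.173), though without HSD replicate 1 it was -0.21 with an adjusted p of 0.0444.

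tim gave 8.94, 9.04, 9.08 and 8.97 in HSD males, against 9.25, 9.19, 9.11 and 9.10 in CD males. All HSD male arrays lay below the CD male arrays, a change of -0.15 (SE 0.05, adjusted p = 0.0407). That call was lost when any 1 array other than CD replicate 4 or HSD replicate 3 was left out (highest adjusted p 0.0992), and the other probe set of tim gave -0.06 (adjusted p = 0.70). In HSD females tim gave 9.10, 8.56, 8.44 and 8.30, against 8.73, 9.05, 8.77 and 8.89 in CD females. HSD replicate 1 was the highest array of both female groups, just above CD replicate 2, and was not flagged as an outlier of its group. The change of -0.26 did not pass (adjusted p = 0.213). Without that array tim fell by 0.43 in HSD females, with an adjusted p of 0.0061. In 1 fit of all 80 arrays, with every array kept, the change of -0.26 also passed (adjusted p = 0.00273). The same HSD female array was the highest of its group for per, Clk, Pdp1 and cry.

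Clk gave 7.99, 8.04, 7.90 and 8.02 in HSD males, against 7.86, 7.86, 7.85 and 7.86 in CD males. The CD male values lay close together and below all HSD values, with a change of 0.13 (SE 0.04, adjusted p = 0.0301). The rise of Clk passed with HSD replicate 3 left out but with none of the other 7 arrays left out (highest adjusted p 0.0848). In females the change of Clk was 0.12 (SE 0.07, adjusted p = 0.227), with overlapping groups. For per the change was 0.08 in females and 0.12 in males, for vri 0.0026 and 0.12, and for Pdp1 -0.02 and -0.04, none past the threshold.

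No clock gene passed in limma for a difference between the sexes in the diet response (female minus male), where 30.3% of all genes did, and 1 of 7 had an unadjusted p under 0.05, beside 41.6% of all genes. That gene was cwo, at -0.29 (SE 0.11, adjusted p = 0.0653), with an adjusted p of 0.0423 after quantile normalization and a value of 0.16 on its other probe set. Without CD female replicate 4 or HSD male replicate 3 its adjusted p was 0.0219 and 0.0227. For cry the difference between the sexes was -0.05 with a 95% interval of -0.22 to 0.13. Of all genes tested 41.4% passed for diet in F0 females and 30.7% in F0 males, the shares beside the marker counts that follow. Markers of photoreceptors moved with diet in F0. Their mean was 8.97 ± 0.13 in HSD and 8.58 ± 0.11 in CD females, with 8 of 9 measured markers higher and 0 lower, and 10.38 ± 0.02 in HSD and 10.21 ± 0.01 in CD males, with 7 of 9 higher and 0 lower. The fat body list averaged 9.79 ± 0.01 in HSD and 10.16 ± 0.06 in CD females, and 9.10 ± 0.01 in HSD and 9.23 ± 0.03 in CD males, each with members passing in both directions. In F0 males 8 of 13 testis markers were also higher on HSD and 0 lower, at 9.98 ± 0.04 in HSD and 9.79 ± 0.03 in CD males. Of 4 glia markers 1 was higher and 1 lower in F0 females and limma passed 0 in F0 males, with 0 at an unadjusted p under 0.05, and 1 of 8 accessory gland markers was higher in F0 males. The part of these tissues in the changes of the clock genes was not tested.

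**Figure D2:**
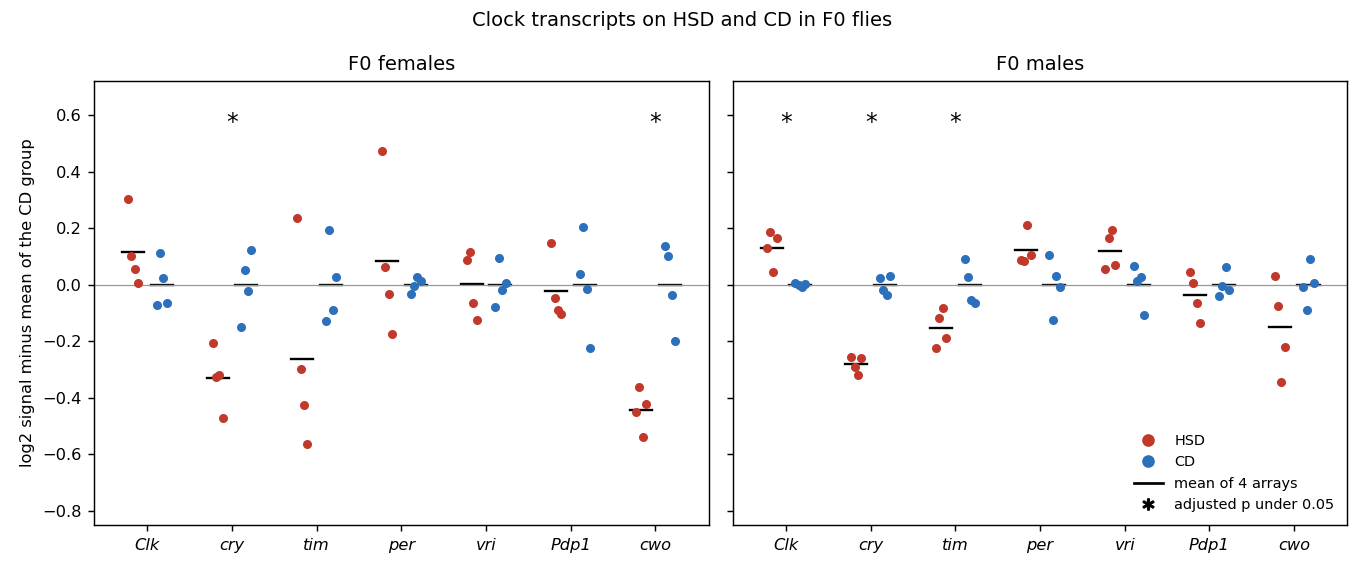
Log2 signal of each clock gene in F0 females and males minus the mean of the CD group of that sex (points are arrays, bars the means of 4). cry lies below its CD values in both sexes, cwo in females, and tim below and Clk above in males, and these 5 carry the mark for an adjusted p under 0.05.

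In F1 the comparison asked whether the diet of the F0 males left a difference in their offspring. tim and per rose with HSD ancestry in F1 females, 1.19-fold and 1.12-fold when both own diets were averaged. In F1 males only Clk passed, and it fell, in the averaged comparison. Among HSD-fed F1 females 1 of 7 clock genes passed, higher, where 4.12% of all genes did. Among CD-fed F1 females 2 of 7 passed, both higher, where 2.65% of all genes did. Averaged over own diets 2 of 7 passed in F1 females, where 7.34% of all genes did.

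tim gave 10.004, 9.94, 10.02 and 9.95 in HSD-fed F1 females of HSD ancestry, against 9.75, 9.62, 9.64 and 9.81 in those of CD ancestry. It gave 10.08, 10.09, 10.10 and 10.04 in CD-fed F1 females of HSD ancestry, against 9.79, 9.95, 9.84 and 9.83 in those of CD ancestry. In both diets all values of HSD ancestry lay above all values of CD ancestry. The changes were 0.27 (SE 0.05, adjusted p = 0.019) on HSD and 0.22 (SE 0.05, adjusted p = 0.0389) on CD. Averaged over own diets the change was 0.25 (SE 0.03, adjusted p = 0.000342, 1.19-fold), and it passed with any 1 of the 16 arrays left out.

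The separate calls for tim in F1 females were less steady. On HSD the call was lost without CD-ancestry replicate 2 or 3 or HSD-ancestry replicate 1 or 3 (highest adjusted p 0.061), of which HSD-ancestry replicate 1 held male transcripts. On CD it was lost with any 1 array left out but CD-ancestry replicate 2 (highest adjusted p 0.123). The other probe set of tim, whose mean over all arrays was 5.19 against 10.06 for the one used, gave 0.09 for the averaged change, with an adjusted p of 0.534.

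In HSD-fed F1 females per gave 6.77, 6.81, 6.80 and 6.76 with HSD ancestry, against 6.75, 6.61, 6.65 and 6.81 with CD ancestry. The HSD-fed groups overlapped, and the change of 0.08 did not pass (adjusted p = 0.432). In CD-fed F1 females per gave 6.81, 6.89, 6.98 and 6.91 with HSD ancestry, against 6.62, 6.63, 6.57 and 6.74 with CD ancestry. The CD-fed groups did not overlap, a change of 0.26 (SE 0.06, adjusted p = 0.0395). That call passed without HSD-ancestry replicate 1 but with no other array left out (highest adjusted p 0.111), and after quantile normalization the change was 0.19 with an adjusted p of 0.123. The average of both changes was 0.17 (SE 0.04, adjusted p = 0.00982), and it passed with any 1 array left out.

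The other clock genes of F1 females gave averaged changes of 0.19 for Pdp1 (adjusted p = 0.0971), 0.13 for vri (adjusted p = 0.0535), 0.12 for cry (adjusted p = 0.0585), -0.03 for cwo and -0.05 for Clk. vri passed without CD-fed replicate 2 of CD ancestry, HSD-fed replicate 2 of CD ancestry or CD-fed replicate 4 of HSD ancestry (adjusted p from 0.0266 to 0.0452). cry passed without CD-fed replicate 2 of CD ancestry, CD-fed replicate 3 of HSD ancestry or HSD-fed replicate 2 of HSD ancestry (adjusted p from 0.0248 to 0.0486). In HSD-fed F1 females all 4 arrays of HSD ancestry lay above all 4 of CD ancestry for vri, Pdp1 and cry as well, without passing. The share of all genes with such separate groups was not counted. At an unadjusted p under 0.05 in limma there were 4 of 7 in HSD-fed F1 females, beside 18.5% of all genes. Leaving out HSD-ancestry replicate 4 brought Pdp1 to an adjusted p of 0.0488, and leaving out HSD-ancestry replicate 2 brought cry to 0.0267. For Pdp1 the values were 9.54, 9.29, 9.45 and 9.20 with HSD ancestry and 9.02, 9.13, 9.01 and 9.17 with CD ancestry. The median change over the 7 clock genes was 0.13 in the averaged comparison, beside 0.01 over all genes tested. No clock gene passed for a difference between the own diets in F1 females in limma (2.86% of all genes), and 1 of 7 had an unadjusted p under 0.05, beside 15.8% of all genes, per at -0.18 (HSD-fed minus CD-fed).

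Photoreceptor markers stood at 9.18 ± 0.03 with HSD and 8.98 ± 0.05 with CD ancestry in HSD-fed F1 females. Of 9, 4 were higher and 0 lower, where 4.12% of all genes passed. In CD-fed F1 females they stood at 8.62 ± 0.03 with HSD and 8.61 ± 0.06 with CD ancestry. There 0 of 9 passed in limma, with 0 at an unadjusted p under 0.05. Neuron markers stood at 7.59 ± 0.05 with HSD and 7.47 ± 0.02 with CD ancestry in HSD-fed F1 females. Of 14, 1 was higher and 0 lower, beside the same 4.12%. Their part in the rise of tim and per was not tested.

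In F1 males limma passed no clock gene in HSD-fed flies, where 0% of all genes passed, and none in CD-fed flies, where 4.52% did. At an unadjusted p under 0.05 there were 3 of 7 in HSD-fed F1 males, beside 11.7% of all genes, and 2 of 7 in CD-fed F1 males, beside 24.8%. tim gave 11.12, 11.20, 11.16 and 11.14 in HSD-fed F1 males of HSD ancestry, against 10.96, 11.02, 11.02 and 11.05 in those of CD ancestry. Those groups did not overlap, with HSD ancestry on top, at 0.14 (SE 0.03, adjusted p = 0.185). per gave 7.22, 7.26, 7.06 and 7.27 in CD-fed F1 males of HSD ancestry, against 7.42, 7.37, 7.46 and 7.35 in those of CD ancestry. All values of HSD ancestry lay below those of CD ancestry, at -0.20 (SE 0.06, adjusted p = 0.0712).

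Averaged over own diets 1 of 7 clock genes passed in F1 males, lower, where 5.09% of all genes did. This was Clk, at -0.11 (SE 0.03, adjusted p = 0.0454). Its values were 8.35, 8.42, 8.37 and 8.36 in HSD-fed F1 males of HSD ancestry, against 8.52, 8.44, 8.51 and 8.44 in those of CD ancestry. In CD-fed F1 males they were 7.92, 7.88, 7.77 and 7.83 with HSD ancestry, against 8.03, 8.01, 7.91 and 7.91 with CD ancestry. The HSD-fed groups were apart, with HSD ancestry below, and the CD-fed groups overlapped at 1 array of HSD ancestry. The call was lost with any 1 array left out but CD-fed replicate 4 of CD ancestry or CD-fed replicate 1 of HSD ancestry (highest adjusted p 0.0955), and without the arrays that held female transcripts (adjusted p = 0.089). cry, at 0.09 (adjusted p = 0.121), passed without CD-fed replicate 3 of HSD ancestry (adjusted p = 0.0261). In the averaged comparison 2 of 9 photoreceptor markers and 2 of 14 neuron markers were lower and none higher, and their part in the result was not tested.

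per was the clock gene whose F1 male ancestry change differed between own diets, by 0.26 (HSD-fed minus CD-fed, SE 0.07, adjusted p = 0.0404), 1 of 7 where 3.77% of all genes passed. Its ancestry change was 0.07 in HSD-fed and -0.20 in CD-fed F1 males. This call was lost in 10 of the 16 fits with 1 array left out (highest adjusted p 0.0901) and without the arrays that held female transcripts (adjusted p = 0.0666). It was kept without CD-fed replicates 2 or 4 of CD ancestry, CD-fed replicates 2, 3 or 4 of HSD ancestry, or HSD-fed replicate 2 of HSD ancestry.

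In F2 the same question was asked of the grandchildren of the F0 males. F2 females of HSD ancestry had more tim, vri and Pdp1 RNA and less Clk RNA than F2 females of CD ancestry when both own diets were averaged. In F2 males no clock gene passed in the averaged comparison. Averaged over own diets 4 of 7 clock genes passed in F2 females, 3 higher and 1 lower, where 10.1% of all genes passed. Over all genes tested there 259 were higher and 821 lower, and the median change was -0.03, beside 0.09 over the 7 clock genes. Among HSD-fed F2 females alone 1 of 7 passed, higher, where 0.789% of all genes did, and among CD-fed F2 females 1 of 7, higher, where 1.29% did.

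tim gave 8.79, 9.02, 9.02 and 8.93 in HSD-fed F2 females of HSD ancestry, against 8.49, 8.59, 8.58 and 8.61 in those of CD ancestry. The lowest value of HSD ancestry lay above the highest of CD ancestry, a change of 0.37 (SE 0.06, adjusted p = 0.0242, 1.3-fold). In CD-fed F2 females tim gave 10.42, 10.47, 10.46 and 10.50 with HSD ancestry, against 10.36, 10.31, 10.35 and 10.44 with CD ancestry. These groups overlapped at 1 array of each ancestry, and the change was 0.10 (adjusted p = 0.299). The averaged change was 0.23 (SE 0.04, adjusted p = 0.00167), and it passed with any 1 array left out. The call on HSD alone was lost with any 1 array left out but HSD-ancestry replicates 1 or 2 (highest adjusted p 0.0819). The other, dimmer probe set of tim gave -0.15 on HSD and -0.08 averaged (adjusted p = 0.365 and 0.422), on the other side of 0.

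vri gave 8.83, 8.95, 8.86 and 8.55 in HSD-fed F2 females of HSD ancestry, against 8.58, 8.58, 8.57 and 8.60 in those of CD ancestry. In CD-fed F2 females it gave 9.60, 9.48, 9.65 and 9.82 with HSD ancestry, against 9.34, 9.57, 9.26 and 9.23 with CD ancestry. In each diet 1 value of HSD ancestry lay within or below the range of CD ancestry and 3 lay above it. The averaged change was 0.25 (SE 0.06, adjusted p = 0.0226), and without CD-fed replicate 4 of HSD ancestry, the highest array, its adjusted p was 0.0509. Within a diet the changes were 0.22 on HSD (adjusted p = 0.195, and 0.0398 without HSD-ancestry replicate 4) and 0.29 on CD (adjusted p = 0.122, and 0.0432 without CD-ancestry replicate 2).

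Pdp1 gave 8.32, 8.30, 8.36 and 8.31 in HSD-fed F2 females of HSD ancestry, against 8.30, 8.30, 8.28 and 8.20 in those of CD ancestry. In CD-fed F2 females it gave 9.07, 8.91, 9.01 and 9.12 with HSD ancestry, against 8.80, 8.71, 8.66 and 8.51 with CD ancestry. Both diets had all values of HSD ancestry above those of CD ancestry, narrowly so on HSD. The change was 0.05 on HSD (adjusted p = 0.475), 0.36 on CD (SE 0.07, adjusted p = 0.0372) and 0.21 averaged (SE 0.04, adjusted p = 0.00808). The averaged call held with any 1 array left out. The call on CD alone was lost without CD-ancestry replicate 3 or 4 or HSD-ancestry replicate 1, 3 or 4 (highest adjusted p 0.134).

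Clk gave 5.86, 5.95, 5.79 and 5.79 in HSD-fed F2 females of HSD ancestry, against 6.15, 5.997, 6.13 and 6.13 in those of CD ancestry. In CD-fed F2 females it gave 6.09, 6.26, 5.80 and 5.74 with HSD ancestry, against 6.14, 6.33, 6.39 and 6.40 with CD ancestry. On HSD all values of HSD ancestry lay below those of CD ancestry, while on CD HSD-ancestry replicate 2 lay within the CD-ancestry range. Clk fell by 0.30 in the averaged comparison (SE 0.07, adjusted p = 0.0136, 0.814 times the CD-ancestry signal), and the call held with any 1 array left out. Within a diet the changes were -0.25 on HSD (adjusted p = 0.0653) and -0.34 on CD (adjusted p = 0.13). Leaving out replicate 2 of HSD ancestry brought the adjusted p to 0.0463 on HSD and 0.0453 on CD.

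per, cry and cwo did not pass in F2 females, with averaged changes of 0.06 (95% interval -0.05 to 0.17), -0.01 (95% interval -0.09 to 0.07) and 0.09 (95% interval 0.0003 to 0.17). No clock gene passed in limma for a difference between the own diets of F2 females (0.169% of all genes). At an unadjusted p under 0.05 there were 3 of 7, beside 10.6% of all genes, among them tim at 0.28 (adjusted p = 0.16) and Pdp1 at -0.30 (adjusted p = 0.162), each HSD-fed minus CD-fed. Without HSD-fed replicate 1 of HSD ancestry the adjusted p of tim was 0.0465.

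Ovary markers moved with ancestry in the same females. The list of 14 measured markers averaged 11.72 ± 0.01 in HSD-fed F2 females of HSD ancestry and 11.88 ± 0.03 in those of CD ancestry, and 11.91 ± 0.04 in CD-fed F2 females of HSD ancestry and 12.16 ± 0.05 in those of CD ancestry. In the averaged comparison 5 of 14 were lower and 0 higher, where 10.1% of all genes passed, 259 higher and 821 lower. Photoreceptor markers averaged 8.52 ± 0.11 with HSD and 8.39 ± 0.04 with CD ancestry in HSD-fed, and 8.03 ± 0.03 with HSD and 8.11 ± 0.06 with CD ancestry in CD-fed F2 females, so they ran in opposite directions in the 2 diets. In the averaged comparison 0 of 9 photoreceptor markers passed in limma, and 0 had an unadjusted p under 0.05. The part of the ovary in the changes of the clock genes was not tested.

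In F2 males limma passed no clock gene on HSD (0.201% of all genes), on CD (2.99%) or averaged (1.17%). At an unadjusted p under 0.05 there were 3 of 7 on HSD (7.32% of all genes), 2 of 7 on CD (21.5%) and 2 of 7 averaged (19.0%). vri gave 9.82, 9.50, 9.92 and 9.98 in HSD-fed F2 males of HSD ancestry, against 10.31, 10.18, 10.14 and 10.31 in those of CD ancestry. All values of HSD ancestry lay below those of CD ancestry, at -0.43 (SE 0.10, adjusted p = 0.234). In CD-fed F2 males vri gave 10.57, 10.55, 10.55 and 10.61 with HSD ancestry, against 10.42, 10.38, 10.39 and 10.30 with CD ancestry. There the order was turned round, at 0.20 (SE 0.06, adjusted p = 0.0793). In HSD-fed F2 males tim changed by -0.23 (SE 0.06, adjusted p = 0.334) and Clk by 0.18 (SE 0.07, adjusted p = 0.584), neither past the threshold.

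The difference between these changes of vri in F2 males was -0.63 (HSD-fed minus CD-fed, SE 0.12, adjusted p = 0.0111), and vri was 1 of 7 clock genes to pass where 0.923% of all genes did. It passed with any 1 array left out. Without the 3 arrays of HSD-fed F2 males that held female transcripts it was -0.51, with replicate 3 alone left in their group of HSD ancestry. Ovary markers averaged 6.97 ± 0.23 in HSD-fed F2 males of HSD ancestry and 6.06 ± 0.02 in those of CD ancestry, and 8 of 13 passed, all higher, for the difference between own diets. tim showed a difference between own diets on the same side, -0.35 (adjusted p = 0.0658), which did not pass. Of the 16 fits with 1 array left out it passed in those without CD-fed replicate 2 or HSD-fed replicate 4 of CD ancestry (adjusted p = 0.028 and 0.0462), and it passed with a trended and robust variance prior (adjusted p = 0.0342).

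Pdp1 gave 10.63, 10.43, 10.48 and 10.56 in CD-fed F2 males of HSD ancestry, against 10.94, 11.23, 10.79 and 10.68 in those of CD ancestry. The groups did not overlap, with HSD ancestry below, but the change of -0.38 (SE 0.10) did not pass (adjusted p = 0.0652). Without CD-ancestry replicate 4 it did (-0.46, adjusted p = 0.0239). Clk gave averaged F2 male values of 0.20 (95% interval 0.03 to 0.36, adjusted p = 0.191), and cry and cwo 0.06 and -0.08.

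**Figure D3:**
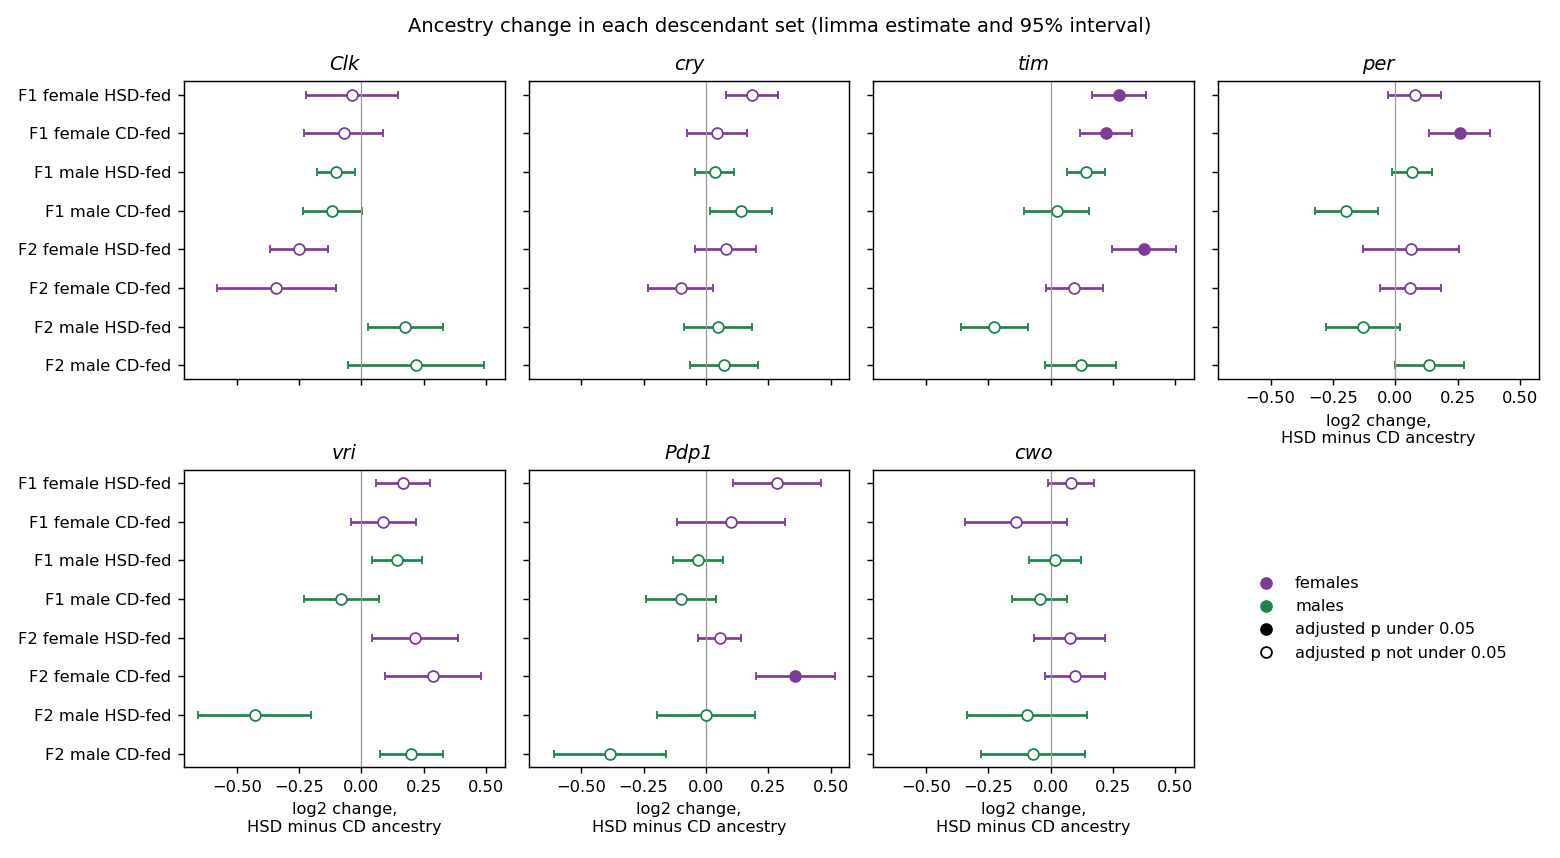
Change with ancestry (HSD minus CD ancestry, log2, limma estimate with its 95% interval) of each clock gene in the 8 descendant sets; filled points have an adjusted p under 0.05. The 5 filled points are all in females and all above 0, for tim in 3 sets, per in 1 and Pdp1 in 1.

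The sexes were then set against each other within each descendant generation, a comparison added after the changes within each sex had been seen. In F2, 4 of 7 clock genes passed for a difference between the ancestry change of females and that of males, 3 higher and 1 lower, where 11.2% of all genes passed. In F1, 2 of 7 passed, both higher, where 3.41% of all genes passed.

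For Clk the F2 difference was -0.49 (female minus male, SE 0.11, adjusted p = 0.00539), from changes of -0.30 in females and 0.20 in males. For Pdp1 it was 0.40 (SE 0.09, adjusted p = 0.00541), from 0.21 in females and -0.19 in males. vri differed by 0.365 (SE 0.09, adjusted p = 0.0101), from 0.25 in females and -0.11 in males. tim differed by 0.29 (SE 0.06, adjusted p = 0.00228), from 0.23 in females and -0.05 in males. In each of these 4 genes the estimates of the sexes lay on opposite sides of 0. All 4 passed with any 1 of the 32 arrays left out, but the other probe set of tim gave -0.03 (adjusted p = 0.917). Leaving out the arrays that held transcripts of the other sex keeps replicate 3 alone of HSD-fed F2 males of HSD ancestry. That array was itself 0.38 above the lowest of its set in female transcripts, so that fit cannot judge these differences.

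In F1 the female minus male difference was 0.23 for per (SE 0.05, adjusted p = 0.00754), from 0.17 in females and -0.06 in males. It held with any 1 array left out. For tim it was 0.17 (SE 0.05, adjusted p = 0.0454), from 0.25 in females and 0.08 in males. The tim difference was lost in 22 of 32 fits with 1 array left out (highest adjusted p 0.0753), without the arrays that held transcripts of the other sex (adjusted p = 0.0984), and on the other probe set (-0.10, adjusted p = 0.609). It was kept without 5 arrays of females, namely CD-fed replicate 2 and HSD-fed replicate 4 of CD ancestry, and CD-fed replicate 4 and HSD-fed replicates 2 and 4 of HSD ancestry. It was also kept without 5 arrays of males, namely CD-fed replicate 3 and HSD-fed replicate 1 of CD ancestry, and CD-fed replicates 1 and 2 and HSD-fed replicate 2 of HSD ancestry. Pdp1 differed by 0.26 (adjusted p = 0.068), and passed without CD-fed female replicate 1 of either ancestry or HSD-fed female replicate 4 of HSD ancestry (adjusted p from 0.0408 to 0.049).

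Markers of other tissues also differed between the sexes in their ancestry change. In F2, 10 of 14 ovary markers differed, all lower as female minus male, where 11.2% of all genes passed. The male side takes in HSD-fed males of HSD ancestry, whose replicates 1, 2 and 4 held female transcripts. Ovary markers averaged 6.97 ± 0.23 there and 6.06 ± 0.02 in HSD-fed F2 males of CD ancestry. In the same F2 difference 0 of 9 photoreceptor markers passed in limma, with 1 at an unadjusted p under 0.05, and 1 of 14 neuron markers did. In F1, 4 of 9 photoreceptor and 4 of 14 neuron markers were higher as female minus male and none lower, where 3.41% of all genes passed. For F1 limma passed 0 of 14 ovary markers, with 6 at an unadjusted p under 0.05, beside 19.7% of all genes. The part of these tissues, and of female RNA in male arrays, in the differences of the clock genes was not tested.

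**Figure D4:**
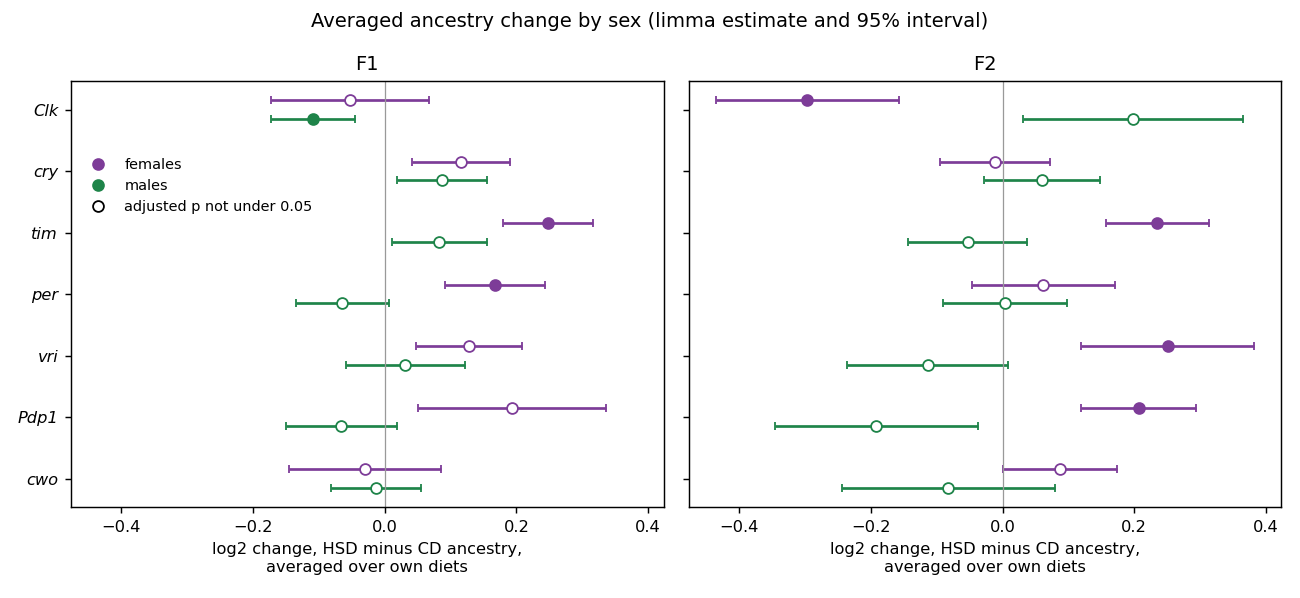
Change with ancestry averaged over both own diets (HSD minus CD ancestry, log2, limma estimate with its 95% interval) of each clock gene in females and males of F1 and F2; filled points have an adjusted p under 0.05. In F2 the estimates of tim, vri and Pdp1 lie above 0 in females and below 0 in males, and that of Clk the other way round. No F2 male point is filled, and the male intervals of tim and vri take in 0.

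Whether the clock genes vary together from array to array was read from each array's deviation from the mean of its group. Over 80 arrays and 21 pairs, tested by permutation of arrays within groups with Benjamini-Hochberg adjustment over the pairs, 2 pairs passed by Pearson's r. tim and per gave r = 0.624 (permutation p = 0.00101, adjusted 0.0109) and rho = 0.368 (permutation p = 0.00579, adjusted 0.0405). Without the 2 arrays farthest from the median of tim, r was 0.346, a lower value without those arrays. Within the 10 sets r of tim and per ran from -0.34 to 0.924, positive in 7.

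tim and cry gave r = 0.47 (permutation p = 0.00104, adjusted 0.0109) and rho = 0.404 (permutation p = 0.00181, adjusted 0.019), and r = 0.362 without the 2 farthest arrays. Within sets it ran from -0.32 to 0.955, positive in 7 of 10. After quantile normalization of all arrays neither pair passed, with r of 0.394 for tim and per and 0.424 for tim and cry, while Pdp1 with cwo and vri with cwo did. Pdp1 and cwo passed by rank but not by Pearson's r, with rho = 0.466 (permutation p = 0.00015, adjusted 0.00315) and r = 0.393 (permutation p = 0.0132, adjusted 0.0881), positive in 9 of 10 sets. Their r was 0.523 without the 2 farthest arrays and 0.653 without the arrays that held transcripts of the other sex. Clk gave no passing pair, its r with vri, which represses it, being -0.15 and with Pdp1, which activates it, -0.13.

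**Figure D5:**
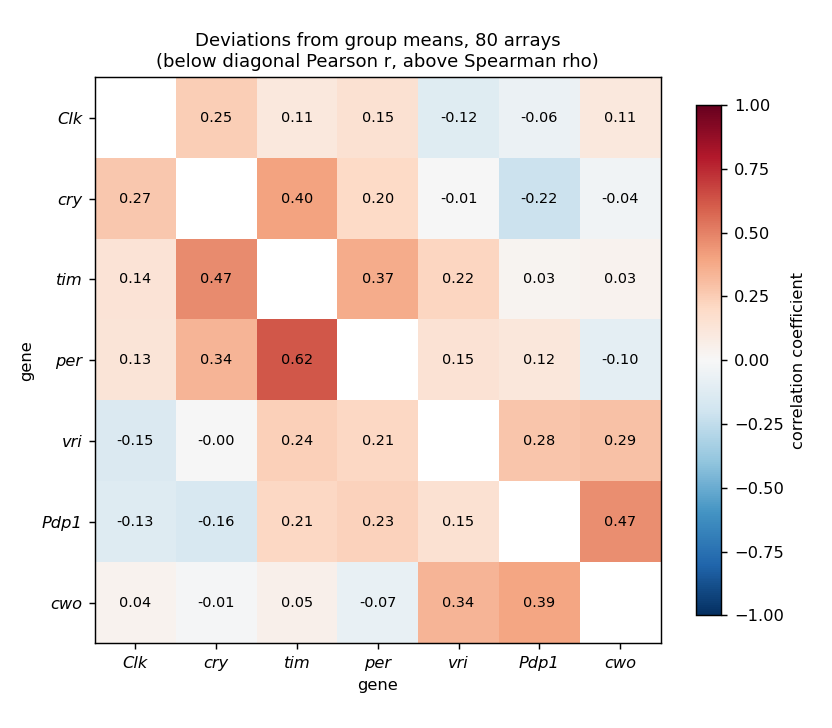
Pearson's r (below the diagonal) and Spearman's rho (above it) between clock genes over 80 arrays, as deviations from the mean of each group of 4. tim with per (r 0.624), tim with cry (r 0.47) and Pdp1 with cwo (rho 0.466) are the strongest pairs.

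For each clock gene the transcripts most like it were listed by r over the 80 arrays after the mean of each set of 8 was removed, so diet and ancestry within sets count towards the likeness. Of 10872 genes, those nearest to cry were Ugt49B1, a UDP-glycosyltransferase gene (r = 0.864), yellow-f2 (r = 0.834) and fbp, which encodes fructose-1,6-bisphosphatase (r = 0.833). Farthest from cry were twin (r = -0.70), su(Hw) (r = -0.70) and Pof (r = -0.68). Nearest to tim were CG17549 (r = 0.737), CG34376 (r = 0.702) and CG8369 (r = 0.701), and farthest Kdm4A, a histone demethylase gene (r = -0.61), Rcc1 (r = -0.60) and CG7745 (r = -0.58).

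Nearest to per were FMRFa, a neuropeptide gene (r = 0.647), CG4678 (r = 0.61) and IP3K2 (r = 0.603), and farthest CG14764, BCL7-like and CAH3 (r from -0.49 to -0.48). Nearest to vri were CG33110 (r = 0.605), shot (r = 0.574) and bab2 (r = 0.56), and farthest Nup50 (r = -0.67), Lint-O (r = -0.64) and U2A (r = -0.62). Nearest to Pdp1 were CG3638 (r = 0.761), kay, the fly Fos gene (r = 0.712), and sty (r = 0.704), and farthest l(3)L1231, Tsp86D and BtbVII (r from -0.68 to -0.64). Nearest to Clk were Ctr9 (r = 0.673), CG6204 (r = 0.657) and toy (r = 0.624), and farthest Lcp65Aa (r = -0.67), Cpr76Bd (r = -0.57) and CG13545 (r = -0.56). Nearest to cwo were ckn, Gp150 and srp (r from 0.752 to 0.757), and farthest Ing5, Cdc45 and Mink (r from -0.75 to -0.70). These likenesses are a description of these arrays, and arrays share diet, ancestry and any RNA of other tissues.

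Genes that act on the clock proteins were followed in a list of 28 regulators, of which 21 have a named probe set here. In F0 females 9 of 20 tested regulators were higher and 1 lower on HSD, where 41.4% of all genes passed, with a list median of 0.15 beside 0.02 over all genes tested. wdb, which encodes a regulatory subunit of protein phosphatase 2A, rose by 0.41 (adjusted p = 0.000282). gw, a gene of RNA silencing, rose by 0.24, and Fbxl4 rose by 0.19. tws, another regulatory subunit of the phosphatase, changed by -0.26 (adjusted p = 0.005).

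In F0 males 1 of 21 regulators was higher and 3 lower, where 30.7% of all genes passed, with a list median of 0.0047 beside 0.0152 over all genes tested. Cul3, a ubiquitin ligase scaffold, rose by 0.29 (adjusted p = 0.00269), while wdb changed by -0.19, jet, the F-box protein that acts on TIM in light, by -0.18 and tws by -0.17. wdb thus passed on opposite sides of 0 in females and males, a difference of 0.60 (female minus male, adjusted p = 5.89e-06). Cul3 differed by -0.36, Bdbt, which encodes a protein that binds the PER kinase Doubletime, by 0.26 and gw by 0.20. In all 6 of 21 regulators were higher and 1 lower in that difference, where 30.3% of all genes passed.

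With ancestry few regulators passed. In none of the 8 descendant sets did limma pass a regulator. At an unadjusted p under 0.05 there were 3 of 20 in CD-fed F1 males (24.8% of all genes) and 2 of 21 in HSD-fed F1 males (11.7%). In F1 females there were 3 of 20 on CD (18.3%) and 0 of 20 on HSD (18.5%). The highest count of the 8 sets, 11 of at most 21, fell in an F2 set. Shares over all genes in the F2 sets ran from 7.32% to 21.8%, so that count lies above each of them. In the averaged F2 female comparison 1 of 20 was higher and 2 were lower, where 10.1% of all genes passed. CkIalpha, a casein kinase gene, rose by 0.22 (adjusted p = 0.0259), while cyc, which encodes the partner of CLK, changed by -0.14 (adjusted p = 0.0495) and Atx2, which acts in per translation, by -0.12 (adjusted p = 0.0226). cyc thus lay on the same side as Clk. In averaged F1 females 1 of 20 passed, where 7.34% of all genes did: ctrip, a ubiquitin ligase gene, at -0.13 (adjusted p = 0.00958). In averaged F1 males 1 of 21 passed, where 5.09% of all genes did: slmb, the F-box protein that acts on PER, at -0.17 (adjusted p = 0.0449). Both counts lie near those shares. In averaged F2 males limma passed 0 of 21, with 5 at an unadjusted p under 0.05, beside 19.0% of all genes.

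The F2 difference between the sexes passed for 1 regulator higher and 5 lower of 21, where 11.2% of all genes passed. These included CkIalpha at 0.34, cyc at -0.30 (adjusted p = 0.00885), lark, which encodes an RNA-binding protein, at -0.25 and dco, the gene of the kinase Doubletime, at -0.21, each female minus male. In F1 it passed for 1 of 21, Bdbt, at -0.25 (adjusted p = 0.0273), where 3.41% of all genes passed. Over all genes tested the F2 difference had 230 higher and 1058 lower.

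Of 16 genes of clock output and light input 14 have a named probe set. In F0 females 6 of 14 were higher on HSD and 1 lower, where 41.4% of all genes passed, with a list median of 0.19 beside 0.02 over all genes tested. Cyp4d21, also known as sxe1, a cytochrome P450 gene, rose by 0.68 in F0 females (adjusted p = 0.0017) and by 0.48 in F0 males (adjusted p = 0.00153). The neuropeptide genes Dh31 and sNPF rose by 0.57 and 0.55 in females, and Pdfr, the receptor of the clock neuropeptide PDF, changed by -0.27 (adjusted p = 0.0211).

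In F0 males 2 of 14 were higher and 1 lower, where 30.7% of all genes passed. Besides Cyp4d21 these were the neuropeptide genes NPF, at 0.21 (adjusted p = 0.00248), and Dh44, at -0.37 (adjusted p = 0.00561). For the difference between the F0 sexes 4 of 14 were higher and 0 lower, where 30.3% of all genes passed, among them Dh31 (0.58), nocte (0.23) and SIFa (0.28). Neuron markers stood at 6.71 ± 0.04 in HSD and 6.50 ± 0.12 in CD F0 females. Of 14, 4 were higher and 0 lower, where 41.4% of all genes passed. In F0 males they stood at 7.99 ± 0.04 on HSD and 7.94 ± 0.04 on CD. Of 13, 1 was higher and 0 lower, where 30.7% of all genes passed. Their part in the changes of neuropeptide genes was not tested.

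With ancestry 1 output gene passed in averaged F1 females, Pdf itself, at 0.18 (adjusted p = 0.0321), where 7.34% of all genes did. Its F1 difference between the sexes was 0.23 (female minus male, adjusted p = 0.0418), where 3.41% of all genes passed. Pdfr passed in HSD-fed F1 females, at -0.16 (adjusted p = 0.0401), where 4.12% of all genes did. Dh44 passed in averaged F1 males, at -0.13 (adjusted p = 0.0225), where 5.09% did. In a list of 14 genes a count of 1 lies near each of these shares. In averaged F2 females and in averaged F2 males limma passed 0 of 14, with 2 and 3 at an unadjusted p under 0.05, beside 29.3% and 19.0% of all genes.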

How the data were processed

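The values were log2 signals of 18952 probe sets on 80 arrays, deposited by the authors and made with RMA, per the submitters' processing notes, which also name limma. Total RNA (250 ng per array) was labelled as biotinylated cRNA, per the labels' protocols. RMA corrects background, scales arrays to one distribution and summarises probes. Spread between array distributions was small within, and larger between, 10 sets of 8 arrays, so comparisons were fitted within sets and levels across sets were described without a test, as deposited and after quantile normalization of all arrays. Control probe sets (183), those with several symbols (402) and those with none (4720) were left out. Of the remaining 13647, 13544 matched RefSeq by Entrez identifier, with 0 symbols differing.

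Each comparison was fitted with limma 3.58.1 in R 4.3.3 (lmFit, eBayes, two-sided) over all genes that, in at least 1 group of the fit, averaged above the 25th percentile of all probe sets, with Benjamini-Hochberg adjustment over those genes and a threshold of 0.05. The difference between sexes in F1 and F2 was added after seeing the data. Other steps ran in Python 3.11.15 with pandas 2.3.3 and numpy 2.4.6. The fits were tested on simulated data. Correlations used 100000 permutations of arrays within groups, adjusted over 21 pairs. Transcripts limited to females (78 genes) or males (652 genes) in F0 served to find RNA of the other sex.

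All 7 clock genes were tested in every comparison, and each one that passed is given. Of the changes that did not pass, only some are printed. Of the regulator and the output lists, up to 3 genes higher and 3 lower with the smallest p past the threshold were named, and for each clock gene the 3 most and the 3 least correlated genes. Marker lists covered photoreceptor, neuron, glia, fat body, testis, accessory gland and ovary. The clock genes and all lists were chosen with earlier results of these data known. List members without a probe set of their own were not analysed here. Alternatives changed the filter, normalization, probe set, variance prior, replicate block and arrays included.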

Additional observations from a re-analysis of the deposited data

Results flagged for a closer look

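In 6 of 140 combinations of gene and group 1 array lay far from the other 3 by Dixon's test, where chance gives about 1 in 20. These were per in HSD F0 males, replicate 3 (6.64, the others 6.51 to 6.53), per in CD-fed F2 females of HSD ancestry, replicate 4 (6.92, the others 6.78 to 6.79), and Clk in HSD-fed F2 females of CD ancestry, replicate 2 (6.0, the others 6.13 to 6.15). The rest were Pdp1 in HSD-fed F2 females of CD ancestry, replicate 4 (8.20, the others 8.28 to 8.30), cry in CD-fed F1 males of CD ancestry, replicate 4 (10.47, the others 10.40 to 10.41), and cwo in HSD-fed F2 males of HSD ancestry, replicate 2 (9.89, the others 10.35 to 10.39). That last array also held female transcripts.

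The ancestry change differed between own diets, HSD-fed minus CD-fed, by 0.26 for per in F1 males (adjusted p = 0.0404 in limma) and by -0.63 for vri in F2 males (adjusted p = 0.0111). Without the arrays that held female transcripts the difference of per missed the threshold in limma, at an adjusted p of 0.0666. For vri that fit keeps replicate 3 alone of HSD-fed F2 males of HSD ancestry, so it gives no usable test. The ancestry change averaged over own diets differed between the sexes in F1, female minus male, by 0.17 for tim (adjusted p = 0.0454) and by 0.23 for per (adjusted p = 0.00754). In F2 it differed by 0.29 for tim (adjusted p = 0.00228), 0.36 for vri (adjusted p = 0.0101), -0.49 for Clk (adjusted p = 0.00539) and 0.40 for Pdp1 (adjusted p = 0.00541). Each of these differences was tested as a contrast in limma.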

How the results depend on the processing

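Of the 25 passing combinations of clock gene and comparison, 25 still passed with the filter at the 50th percentile, 24 after quantile normalization within the fit, 23 without a filter, 22 with a trended and robust variance prior, 16 with the mean of all probe sets, 16 with the other probe set of tim and cwo, and 15 with a replicate block. The counts of clock genes passing that moved by over 1.5 times are as follows, and the cause was not tested. Smaller moves were 3 in place of 2 for F0 female diet in 1 fit of all 80 arrays and for averaged F1 females with a replicate block, and, both with the mean of all probe sets and with the other probe set of tim and cwo, 2 in place of 3 for F0 male diet and 3 in place of 4 for averaged F2 females and the F2 sex difference. Without a filter 1 passed in CD-fed F1 females and 0 in averaged F1 males. With the filter at the 50th percentile 1 passed in CD-fed F1 males, 3 in HSD-fed F1 females, 1 in CD-fed F2 males, 2 in HSD-fed F2 females and 4 in averaged F1 females. After quantile normalization 1 passed for the F0 sex difference, 1 in CD-fed F1 males, 1 in CD-fed F1 females and 2 in HSD-fed F2 females. With the trended and robust prior 1 passed for the F0 sex difference, 1 in HSD-fed F1 males, 4 in HSD-fed and 1 in CD-fed F1 females, 2 in CD-fed F2 males, 0 in averaged F1 males and 0 for their difference between own diets, 4 in averaged F1 females, and 2 for the difference between own diets in F2 males. In 1 fit of all 80 arrays 1 passed for F0 male diet, 3 in HSD-fed and 1 in CD-fed F1 females, 1 in HSD-fed and 2 in CD-fed F2 males, and 3 in CD-fed F2 females.

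With the mean of all probe sets 1 passed for F0 female diet, 0 in HSD-fed, 1 in CD-fed and 1 in averaged F1 females, 0 in HSD-fed F2 females, 2 in averaged F1 males and 1 for the F1 sex difference. With the other probe set of tim and cwo, chosen after seeing the data, 1 passed for F0 female diet, 0 in HSD-fed, 1 in CD-fed and 1 in averaged F1 females, 1 in CD-fed F2 males, 0 in HSD-fed F2 females and 1 for the F1 sex difference. That probe set turned the sign of cwo in F0 females (0.11) and of tim in HSD-fed F2 females (-0.15), averaged F2 females (-0.082) and the sex differences of F1 (-0.10) and F2 (-0.034). Without the arrays that held transcripts of the other sex 0 passed in HSD-fed F1 females, 0 in averaged F1 males and for their difference between own diets, and 1 for the F1 sex difference. In that setting 4 correlated pairs passed. Counts for F2 males are not given there, since replicate 3 alone is left in the HSD-fed group of HSD ancestry. With deviations from the mean of the set of 8 arrays 5 pairs passed. Quantile normalization of all arrays turned the median female minus male difference of per (0.24) and the median own-diet differences of Clk (-0.011) and vri (-0.15).

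With 1 replicate left out, counts ran from 1 to 3 for F0 male diet, 2 to 3 for F0 female diet, 0 to 1 for the F0 sex difference, 0 to 0 in HSD-fed and CD-fed F1 males, 0 to 2 in HSD-fed and 0 to 1 in CD-fed F1 females, 0 to 0 in HSD-fed and 0 to 1 in CD-fed F2 males, and 0 to 2 in HSD-fed and CD-fed F2 females. They ran from 0 to 1 in averaged F1 males and for their difference between own diets, 2 to 4 in averaged F1 females and 0 to 0 for their difference, 0 to 0 in averaged F2 males and 1 to 2 for their difference, 3 to 4 in averaged F2 females and 0 to 1 for their difference, 1 to 3 for the F1 and 4 to 4 for the F2 sex difference. With replicate number as a block 1 passed for F0 male diet, 0 in HSD-fed and CD-fed F1 females, 0 in HSD-fed and CD-fed F2 females, 0 in averaged F1 males and for their difference between own diets, and 1 for the F1 sex difference. The labels do not say whether the numbers pair the samples, and 4 arrays a group cannot settle it. In no set were over 2 of 4 correlations between arrays of the same number above 0.1 (lowest -0.307, highest 0.655). The highest was in HSD-fed F1 females, where 2 of 4 arrays correlated best with their own number. None of the probe sets used averaged under the limit for dim genes in any of the 20 groups, while the other probe set of tim did in 1.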
